A study of Mus musculus with 8 samples.

Results

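Glo1, its neighbours on chromosome 17 and the second glyoxalase were compared between the brains of BTBR/R and B6 mice. The members were taken by name from the annotation of the array: every probe whose gene name was Glo1, Dnah8 (or its older name Dnahc8), Btbd9, Glp1r or Hagh. This gave 11 of 56605 probes, for 5 of 37074 gene names, and no probe carried the name Dnahc8. Each of 8 single-colour Agilent arrays held RNA of 1 male mouse, taken from its cerebral cortex and striatum together. The mice were 4 BTBR/R, the BTBRTF/ArtRbrc subline of a strain used as a model of low sociability, and 4 C57BL/6J (B6). BTBR/R replicate 1 was 6 months old and the other 7 mice were 4 months old, and no mouse carried a transgene or received a treatment according to the labels. The strains differ across the whole genome, so a difference between them belongs to no single allele, and in this bulk tissue fewer cells of a type and less RNA per cell cannot be told apart.

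The glyoxalase system removes methylglyoxal, a reactive dicarbonyl that forms as a by-product of glycolysis and modifies proteins. Glo1 encodes glyoxalase I, which turns the adduct of methylglyoxal and glutathione into lactoylglutathione, and Hagh encodes glyoxalase II, which releases D-lactate and returns the glutathione. In some inbred mouse strains a segment of chromosome 17 that holds Glo1 and neighbouring sequence is duplicated, and Glo1 in the mouse brain has been studied for its relation to anxiety-like behaviour. The arrays measured RNA and give no copy number of DNA.

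The Glo1 probes are shown first because their results differed, for reasons that were not tested. All 3 lie on the minus strand of chromosome 17 (mm9 build). The probe A_55_P2502721, at chr17:30731083-30731142, is called the coding probe here. It is an open frame with no stop codon before its last codon, and the capitals mark that last codon, a stop codon.
Glo1 coding probe: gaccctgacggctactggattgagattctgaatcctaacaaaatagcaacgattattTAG
The middle probe, A_55_P2728133 at chr17:30730503-30730562, starts 580 bases further 3′ along the gene. The far probe, A_51_P480982 at chr17:30729951-30730010, starts 1132 bases further 3′. Both lie beyond the stop codon, and their opening 30 bases, printed without capitals, are these.
Glo1 middle probe: ctgagagcaattcggaatcatgctgacaag
Glo1 far probe: attctcagaggtgatttgaagactcaacaa

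Levels are given as scaled signal, the log2 of the processed array signal minus the 75th percentile of that array. Hence 0 is the level of that percentile, and levels of different probes are not comparable with each other. A probe was detected on an array where the scanner software flagged it as well above background. Changes are BTBR/R minus B6 on this log2 scale, from limma with p-values adjusted over all 56605 probes. A probe was called where the adjusted p was below 0.05 and the change was at least 2-fold. Passing the adjusted p alone is counted apart.

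Of the 11 probes, 7 were detected on all 8 arrays, 3 on some arrays and 1 on none. No probe among the 7 reached a 2-fold change. Among them the far Glo1 probe and 1 Btbd9 probe were higher in BTBR/R by the adjusted p, the coding Glo1 probe was lower, and 4 did not pass. Over all 28547 probes detected on the 8 arrays, 13.0% passed higher and 13.9% passed lower, so passing the adjusted p was common. The 3 members called at 2-fold, all higher, were 2 Dnah8 probes and the Glp1r probe, and none of them was detected on a B6 array. Over all probes 20.2% were called higher, and 10075 of those 11413 were detected on no array. The BTBR/R arrays had fewer probes detected (53.5% to 57.2%, against 64.5% to 66.8% on the B6 arrays). Their lowest detected signal was also higher (36.1 to 47.1 units, against 14.5 to 17.8). Whether this bears on the higher calls of undetected probes was not tested. The B6 arrays lay in the first column of the slide and the BTBR/R arrays in the second, so slide column and strain cannot be told apart.

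**Figure D1:**
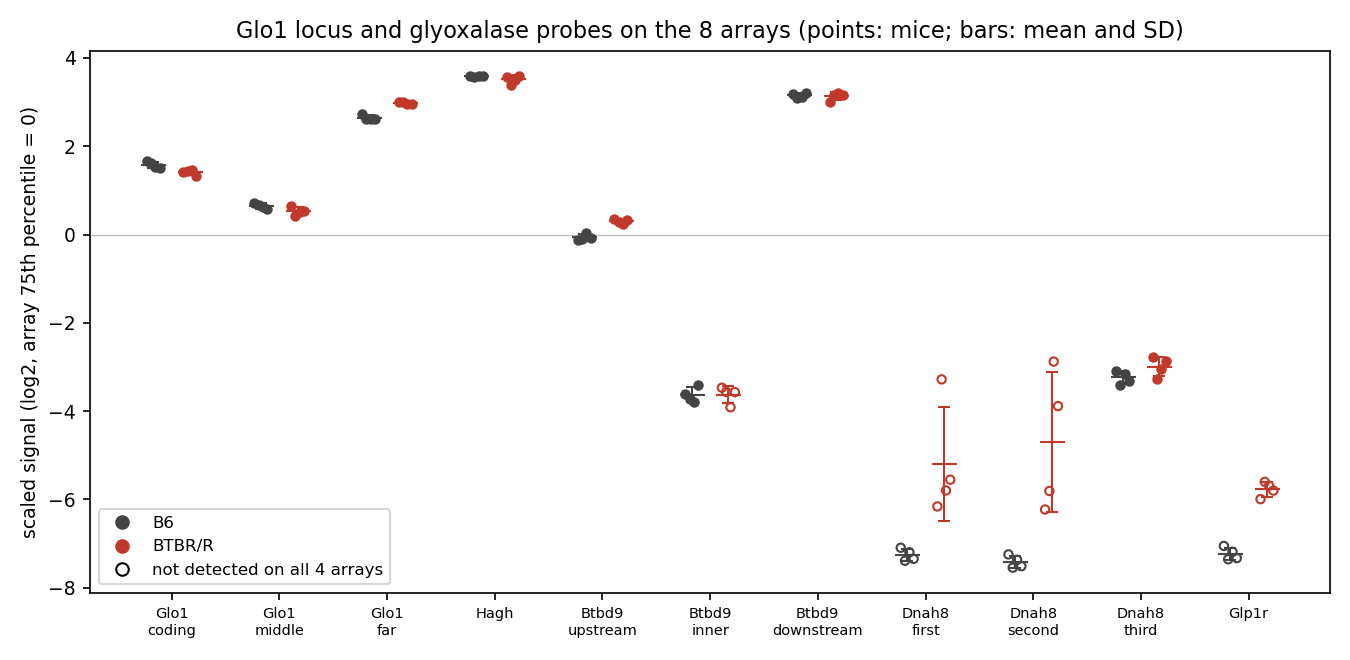
Scaled signal (log2, vertical axis) of the 11 probes, with 1 point for each of 4 B6 (grey) and 4 BTBR/R (red) mice, the mean and the SD. The Dnah8 probes are numbered by position along the chromosome, and open points mark a strain in which the probe was not detected on all 4 arrays. The far Glo1 probe and the upstream Btbd9 probe are higher in every BTBR/R mouse, the coding Glo1 probe is lower in every BTBR/R mouse, and the Hagh values of the strains overlap.

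Glo1 RNA differed between the strains in opposite directions at the far and the coding probe. The far probe, which is the brightest of the 3, read 2.73, 2.62, 2.62 and 2.62 in B6 mice 1 to 4 and 3.01, 3.01, 2.96 and 2.96 in BTBR/R mice 1 to 4. Every BTBR/R mouse was above every B6 mouse. The means were 2.65 ± 0.06 (SD, n = 4) and 2.99 ± 0.03, a rise of 0.34 on the log2 scale (SE 0.05), or 1.26-fold with a 95% confidence interval of 1.17 to 1.36, and the adjusted p from limma was 0.000863. It kept passing whichever mouse was left out, the older BTBR/R mouse among them (change 0.32 to 0.36). The coding probe read 1.66, 1.62, 1.54 and 1.51 in B6 and 1.42, 1.45, 1.46 and 1.34 in BTBR/R. Here every BTBR/R mouse was below every B6 mouse. The change was -0.17 (SE 0.05, 95% interval -0.29 to -0.04), and the limma adjusted p of 0.0467 lay close to the threshold. It passed again only without B6 replicate 4, and leaving out any of the other 7 mice gave an adjusted p of 0.0631 to 0.112. The change was -0.06 (limma adjusted p 0.416) when arrays were scaled to the spike-in controls, a scaling that moved the median of the detected probes up by 0.11.

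The middle Glo1 probe read 0.71, 0.67, 0.62 and 0.57 in B6 and 0.64, 0.43, 0.51 and 0.54 in BTBR/R, and the strains overlapped. Its change of -0.11 (95% interval -0.26 to 0.03) did not pass the test (limma adjusted p 0.190). Averaged over the 3 probes in each mouse, the level was 1.63 ± 0.06 in B6 and 1.64 ± 0.03 in BTBR/R, a difference of 0.02 (exact two-sided permutation test, p = 0.600). Thus a value for the gene depended on the probe that stood for it.

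Differences between 2 probes of the same array do not depend on how arrays are scaled, so the Glo1 probes were also compared in this way. Each such difference includes the unlike brightness of the 2 probes, so only its shift between strains is read. Of the 6 comparisons made, only that of the far probe with Hagh was planned, and the other 5 were added after the data were seen. The far minus the coding probe was 1.08, 0.998, 1.08 and 1.12 in B6 and 1.59, 1.56, 1.496 and 1.63 in BTBR/R, with no overlap. The difference was 0.50 larger in BTBR/R. The far minus the middle probe was 0.45 larger, also without overlap. Both separations were fixed by the values of the single probes given above, so they are described without a test. The middle minus the coding probe was 0.05 larger, with overlap (exact two-sided permutation test, p = 0.400).

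**Figure D2:**
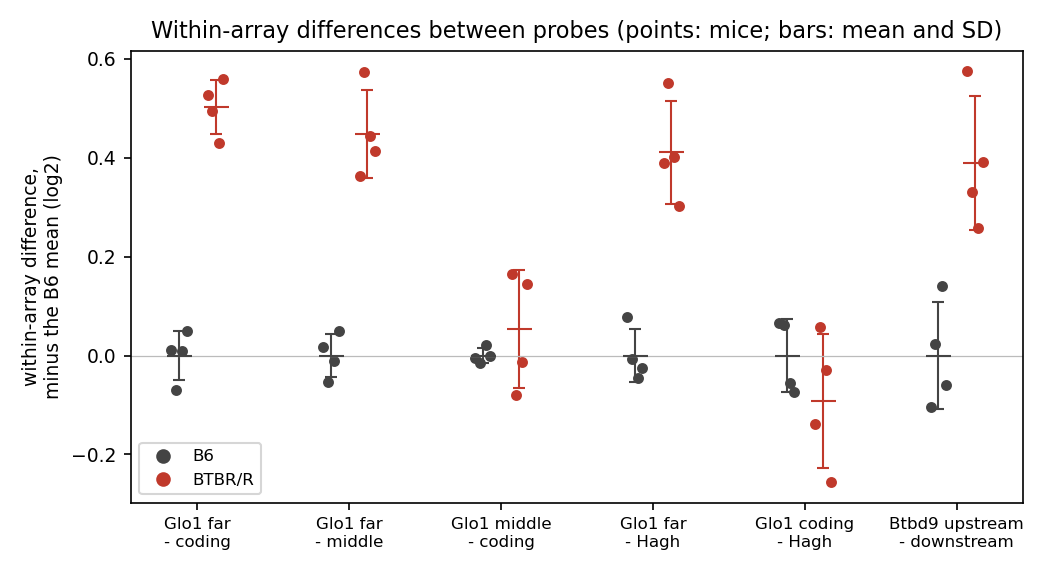
Differences between 2 probes of the same array (log2, vertical axis, with the B6 mean of each comparison set to 0) for 4 B6 (grey) and 4 BTBR/R (red) mice, with the mean and SD. All 4 BTBR/R mice lie above all B6 mice in the comparisons of the far Glo1 probe with the coding probe (0.50 larger), with the middle probe (0.45) and with Hagh (0.41), and of the upstream with the downstream Btbd9 probe (0.39), and the other comparisons overlap.

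Hagh, the partner enzyme, lies 5730 kb from the coding Glo1 probe on the same chromosome, where its probe A_51_P127469 is on the plus strand at chr17:25001260-25001319. It read 3.60, 3.57, 3.60 and 3.59 in B6 and 3.57, 3.40, 3.50 and 3.60 in BTBR/R. The values of the strains overlapped, and BTBR/R mice spread more widely (SD 0.09 against 0.01). The change was -0.07 (SE 0.05, 95% interval -0.20 to 0.05), which did not pass the test (limma adjusted p 0.324). Within the arrays, the far Glo1 probe minus Hagh was -0.86, -0.95, -0.99 and -0.97 in B6 and -0.55, -0.39, -0.54 and -0.64 in BTBR/R. No values of the strains overlapped, and the rise of Glo1 over Hagh was 0.41 (exact two-sided permutation p = 0.0286, the smallest that 4 mice against 4 allow, adjusted over the 3 within-array comparisons tested 0.0857). This separation too followed from the values of the 2 probes, and it adds no support to the rise of the far probe. With the coding probe in its place the shift was -0.09 and the strains overlapped (exact permutation p = 0.314).

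Btbd9 encodes a BTB-domain protein whose gene lies next to Glo1 and has been linked to restless legs syndrome in people. Its upstream and downstream probes also differed. Both are on the minus strand, and their opening 30 bases are shown because their changes differed.
Btbd9 upstream probe, chr17:30650514-30650573: tcagagtgatcgatcactcacattacctgt
Btbd9 downstream probe, chr17:30352469-30352528: gttcatgtgtgtacaaggtcatgacgggct
The upstream probe, A_55_P2040539, is 80.6 kb from the coding Glo1 probe, and the downstream probe, A_55_P1968553, is 379 kb from it. The upstream probe read -0.13, -0.09, 0.04 and -0.07 in B6 and 0.36, 0.28, 0.24 and 0.33 in BTBR/R. Every BTBR/R mouse was above every B6 mouse. The rise was 0.37 (SE 0.06), or 1.29-fold with a 95% interval of 1.18 to 1.41 (limma adjusted p 0.00130), and it passed without any single mouse. The downstream probe, the brightest for the gene, read 3.19, 3.103, 3.12 and 3.21 in B6 and 3.01, 3.17, 3.21 and 3.16 in BTBR/R. These values overlapped, with a change of -0.02 (95% interval -0.16 to 0.12, limma adjusted p 0.817), a sign that turned under spike-in scaling (0.09) and normexp background correction (0.01). Upstream minus downstream was 0.39 larger in BTBR/R, without overlap, a separation fixed by the values of the 2 probes and given without a test. The inner Btbd9 probe, A_55_P2040534 at chr17:30551528-30551587, was dim. It was detected on 4 B6 arrays and 1 BTBR/R array, with means of -3.63 ± 0.17 and -3.63 ± 0.19.

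Dnah8 encodes a heavy chain of axonemal dynein, the motor of motile cilia and sperm tails, and its probes were near background in this tissue. The probe A_55_P2025675, on the plus strand at chr17:31012150-31012209, was the single one detected on all 8 arrays. It read -3.08, -3.40, -3.15 and -3.32 in B6 and -2.78, -3.26, -3.04 and -2.87 in BTBR/R. The strains overlapped, and the change of 0.25 (SE 0.12, 95% interval -0.04 to 0.53) did not pass the test (limma adjusted p 0.153). It passed with normexp background correction (0.27, limma adjusted p 0.0194) and without BTBR/R replicate 2 (0.34, limma adjusted p 0.0474). The probes A_55_P2737349, at chr17:30796088-30796147, and A_52_P426039, at chr17:30952887-30952946, were each detected on no B6 array and on 1 BTBR/R array. Their called changes of 2.06 and 2.72 therefore compare BTBR/R with B6 values that were not well above background. The measured means of A_52_P426039 were -7.42 in B6 and -4.70 in BTBR/R (limma adjusted p 0.0210), and those of A_55_P2737349 were -7.26 and -5.20 (limma adjusted p 0.0291). No fold is given for either, since 3 of the 4 BTBR/R values were not well above background. The call of A_55_P2737349 was lost when any B6 replicate was left out, and that of A_52_P426039 without B6 replicate 2 or BTBR/R replicate 4. The changes of A_55_P2737349 and A_52_P426039 were 0.07 and 0.17, and did not pass, when all arrays were floored at the highest detection limit. Neither passed with normexp (0.54 and 0.66) or quantile normalization (limma adjusted p 0.316 and 0.230).

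Glp1r encodes the receptor for glucagon-like peptide 1, a G protein-coupled receptor best known from pancreatic beta cells and also made by some neurons. Its probe A_51_P275077, which spans chr17:31069561-31073230 on the plus strand across a splice junction, was detected on none of the 8 arrays. It was listed at -7.05, -7.36, -7.19 and -7.33 in B6 and at -5.99, -5.60, -5.69 and -5.80 in BTBR/R. The call of 1.46 (limma adjusted p 2.76e-05) thus rests on values that were not well above background in either strain, and no fold is given. With normexp background correction the change was -0.02 (limma adjusted p 0.713), and with quantile normalization it was 0.30, which passed (limma adjusted p 0.00730) and was under 2-fold.

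To see the locus in its surroundings, all probes from 1 Mb before the first to 1 Mb after the last probe of Glo1, Btbd9, Dnah8 and Glp1r were described, in total 97 probes with 66 names between chr17:29352469-32073230. Of these, 52 were detected on all 8 arrays. Among the detected probes 7 passed the adjusted p higher, 6 passed lower and 39 did not pass. Over all detected probes of the array 13.0% passed higher and 13.9% passed lower. The median change in the window was 0.01 against 0.00 over all detected probes. Under spike-in scaling the split was 10 higher and 2 lower. At 2-fold, 1 detected probe was called higher and 1 lower, against 1.04% and 1.16% of all detected probes. Of the 23 window probes called over all, 22 of the 97 were higher, beside 20.2% of all probes on the array, and 17 of these 22 were detected on no array.

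The 2 detected calls were RIKEN clone transcripts on either side of Glo1, and they went in opposite directions. 1700097N02Rik, a long non-coding RNA in RefSeq, has its probe 28.3 kb from the coding Glo1 probe on the minus strand. It read -3.24, -3.16, -3.30 and -3.11 in B6 and -1.50, -1.65, -1.91 and -1.21 in BTBR/R, a rise of 1.64 (SE 0.14), or 3.11-fold (limma adjusted p 5.59e-05). 0710001D07Rik, whose probe lies 17.1 kb away on the other side and on the plus strand, read -1.78, -1.38, -1.58 and -1.57 in B6 and -2.63, -2.79, -2.69 and -2.44 in BTBR/R. Neither transcript had overlapping values between the strains. The change of 0710001D07Rik was -1.06 (SE 0.11, limma adjusted p 0.000126), and it fell short of 2-fold without B6 replicate 2 (-0.995), when scaled to the spike-ins (-0.95) and after normexp correction of the background (-0.65). AK035082, a transcript whose probe lies between the upstream and inner Btbd9 probes, was detected on no B6 array and on 3 BTBR/R arrays. It was listed at -6.47, -5.44, -6.82 and -6.63 in B6 and at -3.74, -5.79, -2.32 and -1.75 in BTBR/R. BTBR/R replicate 2, where it was not detected, lay below B6 replicate 2, so the strains overlapped. The call (limma adjusted p 0.0307) was lost with the floor at the highest detection limit (change 0.76, limma adjusted p 0.229), under quantile normalization (limma adjusted p 0.142), and without any single mouse other than B6 replicate 2 or BTBR/R replicate 2, and no fold is given.

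Other window genes that passed the adjusted p lay further off. Sik1, a salt-inducible kinase, rose by 0.95 (1.93-fold). Rsph1, which encodes a radial spoke head protein of motile cilia, rose by 0.94 (1.92-fold, limma adjusted p 2.76e-05). Sik1 and Rsph1 were past 2-fold under spike-in scaling alone of the alternatives (1.05 for each). Fgd2, a guanine nucleotide exchange factor for Cdc42, rose by 0.71 and C130068B02Rik by 0.45. BC004004 was lower at both detected probes (-0.40 and -0.19), of which the second did not pass under spike-in scaling (-0.08, limma adjusted p 0.386). Cmtr1, an mRNA cap methyltransferase, was lower at 1 probe (-0.24, and -0.13 without passing under spike-in scaling), while its 2 brighter probes gave 0.08 and 0.01. Pknox1, a homeodomain transcription factor, was lower at 1 probe (-0.18), which did not pass under spike-in or median scaling or with normexp. With 1 mouse left out, that probe passed only when the mouse was B6 replicate 1 or BTBR/R replicate 3. Beside Rsph1 and Dnah8, of the 5 listed ependymal genes, all detected on the 8 arrays, Dnah6 was higher (1.94) and Foxj1 (-0.81) and Tmem212 (-1.34) were lower, and their mean level ran from -0.99 to -0.53 in B6 and from -1.16 to -0.66 in BTBR/R. Their part in these results was not tested.

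**Figure D3:**
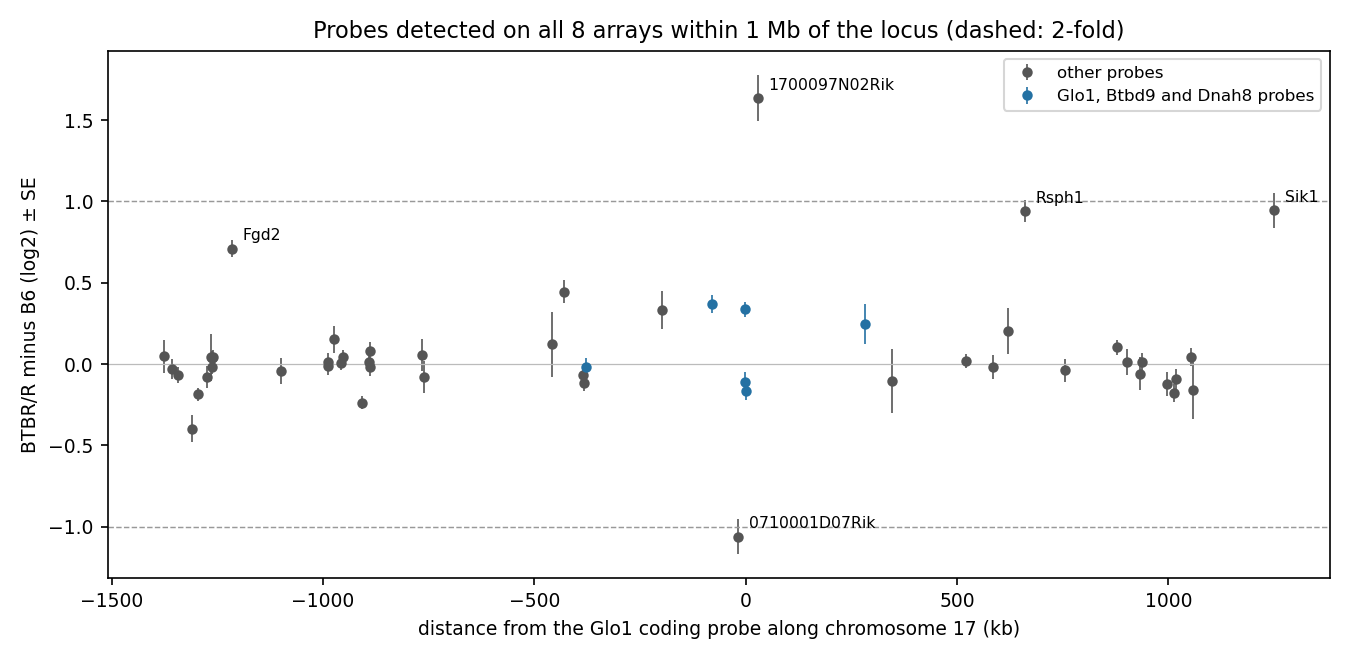
Change between strains (BTBR/R minus B6, log2, vertical axis, with its SE) of the 52 window probes detected on all 8 arrays, by distance in kb from the coding Glo1 probe, with the probes of Glo1, Btbd9 and Dnah8 in blue. Only 1700097N02Rik (1.64) and 0710001D07Rik (-1.06) lie beyond the dashed lines of 2-fold, and 39 of the 52 probes did not pass the adjusted p.

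Methylglyoxal metabolism as a whole was read from a list of 30 names of genes that make methylglyoxal, remove it, supply glutathione or act on its products. Of these, 29 had 68 probes, and the other, Akr1a4, is an older name of Akr1a1 in RefSeq, which the list also holds, so the list stands for 29 genes. In all, 57 probes of 26 genes were detected on all 8 arrays. By the adjusted p, 3 detected probes were higher in BTBR/R, 20 were lower and 34 did not pass, beside 13.0% and 13.9% over all detected probes. The median change was -0.10. Under spike-in scaling 4 passed higher and 8 lower, with a median of 0.00, and leaving out 1 mouse left 3 higher and 12 to 16 lower (13 without B6 replicate 1, 12 without B6 replicate 2 and 13 without BTBR/R replicate 3).

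Of the enzymes that follow or resemble the glyoxalases, Ldhd, the mitochondrial D-lactate dehydrogenase, read 0.70, 0.49, 0.59 and 0.41 in B6 and 0.10, 0.09, 0.19 and 0.17 in BTBR/R. All BTBR/R mice were lower, by 0.41 (SE 0.07, limma adjusted p 0.00268). Glod4, a protein with glyoxalase domains, was lower at both probes (-0.31 and -0.21), neither of which passed under spike-in scaling (-0.21, limma adjusted p 0.102, and -0.11, limma adjusted p 0.382). The second also did not pass without B6 replicates 1, 2 or 4 or BTBR/R replicate 3. Pnkd, a relative of glyoxalase II mutated in paroxysmal dyskinesia, was higher at its dimmest probe (0.53, limma adjusted p 0.000381), while its other 2 probes gave 0.06 and 0.09 and did not pass. Haghl and Ethe1, further relatives of Hagh, did not pass (0.12 and 0.23 for Haghl, 0.08 for Ethe1), though the first Haghl probe passed higher with normexp (0.19, limma adjusted p 0.0390). Glod5 was detected on 4 B6 arrays and 1 BTBR/R array.

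Of the glutathione genes, Gsr, the reductase that regenerates glutathione, read 1.86, 1.80, 1.77 and 1.89 in B6 and 2.28, 2.29, 2.25 and 2.23 in BTBR/R. Every BTBR/R mouse was higher, and the rise was 0.43 (SE 0.05), or 1.35-fold (limma adjusted p 0.000183). The synthesis genes Gclc (0.11), Gclm (-0.13) and Gss (-0.11 and -0.10) did not pass. Gclm passed lower in 6 alternatives, with an adjusted p of 0.0191 (limma with trend and robust) to 0.0489 (quantile normalization). Among the glycolytic genes at which methylglyoxal arises, Aldoc was lower at all 3 probes (-0.45, -0.40 and -0.36), whereas the probes of Aldoa, Tpi1 and Gapdh detected on all 8 arrays (1, 3 and 7) did not pass, with changes of -0.07 to 0.11. The Tpi1 probe at 0.11 passed higher with quantile normalization (0.13), spike-in scaling (0.21) and limma's trend and robust options, and 1 Gapdh probe (0.05) passed higher with quantile normalization (0.13).

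Among the enzymes that reduce or oxidise aldehydes, Aldh7a1, a dehydrogenase of aldehydes in lysine breakdown, had the list's only detected calls at 2-fold. Its brighter probe read 4.06, 4.20, 4.18 and 4.02 in B6 and 3.07, 3.09, 3.19 and 3.07 in BTBR/R. The strains were far apart, by -1.01 (SE 0.06), and the dimmer probe gave -1.17 (limma adjusted p 2.76e-05 for both). The brighter probe fell short of 2-fold under spike-in scaling (-0.90) and without B6 replicates 2 or 3 or BTBR/R replicates 1 or 4 (-0.998 to -0.98), and the dimmer probe with normexp (-0.87), while both passed the adjusted p in these settings. Aldh3a2 (-0.26 and -0.21), Aldh2 (-0.18 and -0.14 at 2 of 4 probes), Akr1b8 (-0.25) and Aldh9a1 (-0.32 at 1 of 2 probes) passed lower by less, but none of the named probes of these 4 genes passed under spike-in scaling. Akr1b8 also did not pass without B6 replicates 2 or 3 or BTBR/R replicates 3 or 4. The dimmest Aldh2 probe (-0.18) did not pass with normexp or without any of 6 mice (all but B6 replicate 3 and BTBR/R replicate 4), and the other (-0.14) did not with the authors' log2 values or without any of 7 mice (all but B6 replicate 4). The Aldh3a2 probe at -0.21 did not pass with normexp or without any of 6 mice (all but the replicates numbered 3). Akr1a1, Akr1b3 and Akr1b10 did not pass (1 Akr1b10 probe passed lower without BTBR/R replicate 4, -0.31), and Akr1b7 was detected on no array. Its call higher in BTBR/R (1.54, limma adjusted p 0.00122) rests on values that were not well above background, and did not pass with normexp (0.09, limma adjusted p 0.652) or quantile normalization (0.31, limma adjusted p 0.552). Of the genes acting on glycated products, the receptor Ager was lower at 3 detected probes (-0.49, -0.47 and -0.16), the last of which did not pass with normexp (-0.12, limma adjusted p 0.0614), under spike-in scaling, or without any of 6 mice (all but B6 replicate 3 and BTBR/R replicate 1). The deglycating kinase Fn3k was lower at 1 of 3 detected probes (-0.19), and Park7 (DJ-1), a redox-sensing protein, at 1 of 2 (-0.12), neither of which passed under spike-in scaling. The Park7 probe also passed in none of the 8 fits without 1 mouse.

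Aldoc is a gene of astrocytes, and astrocyte markers are given beside it. Of 5 astrocyte genes, all detected on the 8 arrays, none was higher and 2 were lower (Aldh1l1, -0.31, and Aqp4, -0.28), and their mean level ran from 2.16 to 2.27 in B6 and from 1.96 to 2.21 in BTBR/R. Their part in the result was not tested. The markers of the labelled tissue were present: 4 cortical excitatory neuron genes and 5 striatal projection neuron genes were detected on all 8 arrays, and none passed by its brightest probe, though a second Drd1 probe passed lower (-0.31). Nor did any of 4 choroid plexus genes, whose mean level varied widely between mice of a strain. It ran from -1.81 to 0.72 in B6 and from -1.42 to 0.04 in BTBR/R.

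**Figure D4:**
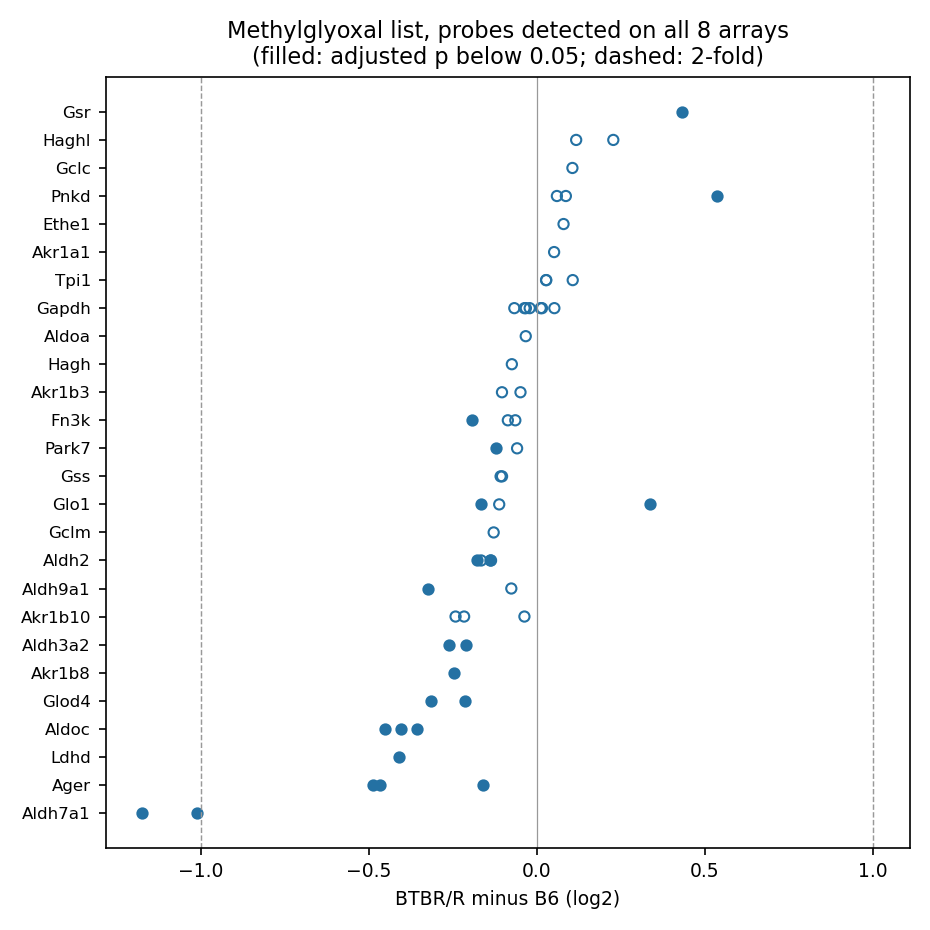
Change between strains (BTBR/R minus B6, log2, horizontal axis) of the 57 probes of the methylglyoxal list detected on all 8 arrays, 1 row per gene and 1 point per probe, filled where the adjusted p was below 0.05. Filled points lie to the left for 20 probes and to the right for 3, Glo1 has filled points on both sides, and the points of Aldh7a1 lie beyond the dashed 2-fold line.

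The genes whose signal followed the far Glo1 probe most closely over the 8 arrays, among 28547 detected probes, were Anxa5, a calcium-dependent phospholipid-binding protein (Pearson's r = 0.996), Padi2, a peptidylarginine deiminase (0.993), and Stk10, a kinase (0.993). All 3 were higher in BTBR/R (by 0.62, 0.93 and 0.81), and the 8 points fall into the 2 strains, so these values describe the ordering and are given without a p.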

How the data were processed

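Corticostriatal RNA of 8 mice was read on 8 single-colour arrays, grouped by the strain in the labels. The authors deposited Feature Extraction 10.7.3.1 (per the labels) files with the processed signal, mean signal and background intensity of each spot and other columns of deposited flags, and log2 values from GeneSpring, which equalled the log2 processed signal plus a constant per array to within 0.01 for at least 99.97% of probes. Control spots and outlier flags (36 to 52 spots an array) were left out, spots of a probe were averaged, and 56605 probes remained of 59305 spots. Values were scaled to the 75th percentile of each array and compared with limma 3.58.1 in R 4.3.3, with Benjamini-Hochberg adjustment. On simulated data for this comparison (56583 probes), 194 of 200 changed and 7 unchanged probes were called. The changed probes were drawn from those detected on all 8 arrays, with changes past 2-fold and independent noise. No background difference between the strains was simulated. The counts therefore give no error rate for undetected probes or for changes under 2-fold. The permutation tests used scipy 1.17.1 under Python 3.11.15, tables were handled with pandas 2.3.3 (numpy 2.4.6), and plots were drawn with matplotlib 3.10.9. All arrays shared 1 scan date and no probe was saturated. The number of arrays limits the precision.

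The members, lists and rules were chosen with earlier results of these data known. A gene's value was its brightest probe detected on all arrays. Named were all member probes, and in the window and the methylglyoxal list the genes with a called detected probe, then those passing the adjusted p, up to 15 a list, with the 3 genes most like the far Glo1 probe. Other genes were named beside them to fill in their pathway or as markers. Positions and names are those of the array (mm9), of which 72 of 94 names matched the RefSeq table, and exons were not assigned. Probe sequences come from the deposited files. Alternatives were normexp (offset 50), quantile, median, detected-probe and spike-in scaling, the authors' values, detection filters, a floor, the methods' t-test, limma with trend and robust, a replicate block and leaving out each mouse.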

Additional observations from a re-analysis of the deposited data

Results flagged for a closer look

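Of 65 groups of 4 mice examined among the member probes, the named probes and the 3 genes most like the far Glo1 probe, 4 held a mouse whose gap to the nearest other mouse took up more of the group's range than Dixon's 95% critical value allows. Chance gives such a gap in about 1 in 20 groups. At the far Glo1 probe, B6 replicate 1 read 2.73 on the scaled log2 signal, where the other 3 B6 mice read 2.62 at each, and the BTBR/R mice remained above it. At the Sik1 probe, B6 replicate 2 read -2.42 and the others -2.0 to -1.96. At the Cmtr1 probe that was lower in BTBR/R, BTBR/R replicate 3 read -1.49 and the others -1.55. At the Ager probe with the largest change among those detected on all 8 arrays, B6 replicate 3 read -2.02 and the others -2.32 to -2.29. The causes were not tested.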

How the results depend on the processing

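The change of the far Glo1 probe kept its direction and passed in all 20 alternatives of processing and of mice left out (0.31 to 0.44 over the settings, 0.32 to 0.36 without 1 mouse). Its value as the gene's value reversed with the coding probe (-0.17) or the middle probe (-0.11) in its place and was 0.019 for the mean of the 3 probes, choices made after the data were seen. The rise over Hagh was 0.41 in every setting run and 0.36 to 0.45 without 1 mouse, where 3 against 4 mice cannot give an exact permutation p under 0.0571, and -0.092 with the coding probe. Hagh turned to 0.032 under spike-in scaling. Btbd9 turned to 0.0053 with normexp, 0.086 under spike-in scaling and 0.37 with the upstream probe, and ranged from -0.044 to 0.022 without 1 mouse, with the positive value without BTBR/R replicate 1. Dnah8 passed with normexp (0.27), and was 0.18 to 0.34 without 1 mouse. Glp1r was -0.024 with normexp, 0.30 with quantile normalization and 1.40 to 1.54 without 1 mouse, and had no value after the filters and the floor. Calls in the window were 23, and 2 with normexp, 5 with quantile normalization, and 2 after each detection filter, with the floor and when only detected probes were counted. They numbered 19 to 24 without 1 mouse. Calls in the methylglyoxal list were 3, 1 with normexp, and 2 to 5 without 1 mouse (5 without BTBR/R replicate 2). The replicate numbers are shared by both strains, and deviations of same-numbered mice correlated at 0.00, -0.07, -0.04 and 0.16. Mice with unlike numbers were not compared, so these values do not settle whether the numbers pair the mice. With a replicate block the far Glo1 probe kept 0.34 (limma adjusted p 0.0118), the coding Glo1 probe did not pass (limma adjusted p 0.0927), window calls were 22, methylglyoxal calls 3, and the detected probes passing lower fell from 20 to 10 in the methylglyoxal list and from 6 to 2 in the window. Those lost were both BC004004 probes (limma adjusted p 0.0528 and 0.0536), the coding Glo1 probe, Pknox1, Aldh9a1, Akr1b8, Fn3k, Park7, both Aldh2 probes, the weaker Glod4 and Aldh3a2 probes and the weakest Ager probe, and the Dnah8 probe A_55_P2737349 (limma adjusted p 0.0652) and AK035082 (limma adjusted p 0.0950) lost their calls. With the methods' t-test A_55_P2737349 (adjusted p 0.0520) and AK035082 (adjusted p 0.0546) lost their calls, and 1 Tpi1 and 1 Gapdh probe passed higher. The block, the t-test and limma's options were not run for the permutation test. Causes were not tested. Background signal limits the dim Dnah8 and Glp1r probes.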
